A study of Mus musculus with 6 samples.

Results

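A group of 9 genes of cell adhesion was described in regulatory T cells (Tregs) that had infiltrated lung tumors: the integrin alpha subunits Itgae, Itga4, Itgal and Itgav, the integrin beta subunits Itgb1, Itgb2 and Itgb7, the selectin ligand Selplg and the hyaluronan receptor Cd44. They were chosen by name and not by their values, though with earlier results of these data known. All 9 were found by gene symbol among the 15319 genes listed. All 9 were also among the 15315 genes with at least 1 count over the libraries, which were the genes tested.

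Both groups were mice on a C57BL/6J background that carried a Yfp-Cre fusion at Foxp3, which places the recombinase in cells that express Foxp3, the lineage factor of Tregs. The WT group was Foxp3 Yfp-Cre, and the cKO group was Xrcc6 flox/flox Foxp3 Yfp-Cre, in which Tregs lose Xrcc6, the gene of the DNA repair protein Ku70. Mice of 8 to 10 weeks received cells of the mouse Lewis lung carcinoma line LLC through the tail vein, and tumors were taken at 21 days. RNA-Seq of the sorted Tregs gave 3 libraries per group, and the comparison of cKO with WT asked what the loss of Ku70 changed in the transcripts of these cells. The sources used here do not say whether the libraries of a group came from separate mice, so the p-values measure only the spread between these libraries.

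Integrins are pairs of an alpha and a beta subunit, and neither subunit reaches the cell surface without a partner. In T cells, Itgal and Itgb2 form LFA-1, which binds ICAM proteins on vessels and on antigen-presenting cells. Itga4 pairs with Itgb1 to bind VCAM-1 and fibronectin, or with Itgb7 to bind the mucosal addressin MAdCAM-1. Itgae encodes the alpha subunit CD103, which pairs with Itgb7 to bind E-cadherin on epithelial cells and marks many tissue Tregs. Itgav pairs with several beta subunits and takes part in the release of active TGF-β from its latent form. Selplg encodes PSGL-1, the ligand through which T cells roll on selectins, and Cd44 encodes the receptor for hyaluronan, which rises on activated T cells and is used to mark effector Tregs.

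Itga4, Itgav and Cd44 all lie on mouse chromosome 2, and the other 6 genes lie on 6 further chromosomes. RefSeq promoter sequence of the GRCm38.p6 build, from 250 bases before to 50 bases after the start of transcription, was matched for 5 of the 9 genes. The promoters of Itga4 and Itgb7 are shown because the products of these genes pair with each other and because, of the genes matched, they stood lowest and highest in level per length. Capitals mark 6-base matches on either strand to TGTGGT, the core read by RUNX factors, to TAAACA, read by forkhead factors such as Foxp3, or to GGGCGG, read by SP factors.
Itga4, chr2:79255176-79255475, plus strand: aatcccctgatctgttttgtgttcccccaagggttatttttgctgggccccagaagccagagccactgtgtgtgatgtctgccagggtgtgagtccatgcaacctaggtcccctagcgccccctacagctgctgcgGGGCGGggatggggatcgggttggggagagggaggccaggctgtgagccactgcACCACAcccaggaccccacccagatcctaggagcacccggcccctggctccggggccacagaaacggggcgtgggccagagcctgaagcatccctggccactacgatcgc
Itgb7, chr15:102231886-102232185, minus strand: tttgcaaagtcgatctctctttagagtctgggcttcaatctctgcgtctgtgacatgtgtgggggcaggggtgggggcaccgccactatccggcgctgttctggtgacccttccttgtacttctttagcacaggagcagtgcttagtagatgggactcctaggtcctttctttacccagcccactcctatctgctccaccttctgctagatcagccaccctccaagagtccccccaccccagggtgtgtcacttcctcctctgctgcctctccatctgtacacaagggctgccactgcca
The Itga4 window held 1 match to TGTGGT, read on the opposite strand, and 1 match to GGGCGG, and 64.3% of its bases were G or C. The Itgb7 window held no match to any of the 3 motifs at a G and C share of 56.3%. The other 3 windows, of Itgav, Itgb1 and Cd44, each held 1 match to GGGCGG, and that of Itgav also held the single TAAACA. Of 32851 promoters of this length, 35.7% held GGGCGG, 16.8% held TGTGGT and 13.4% held TAAACA, and the median G and C share was 52.7%. A match describes letters in the window and not a bound site.

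Total counts ranged from 19032620 to 23159815 per library. WT replicate 2 stood apart from the other 5 libraries: 11513 genes had at least 1 count in it, against 14442 to 14737 in the others, and its highest correlation with another library across genes was 0.930, against at least 0.991 for each of the others. Every fold change of the 9 genes is therefore given with and without it. Levels are given as CPM, the counts of a gene relative to the library total as scaled by edgeR's TMM method. In the order of replicates 1, 2 and 3, which holds for all values below, the level of Xrcc6 was 20.9, 63.1 and 23.8 CPM in the WT libraries and 5.24, 3.51 and 4.18 CPM in the cKO libraries. It was thus lower in each cKO library, as the labels say, by 3.06 on the log2 scale, an effect that missed the threshold over all 6 libraries with edgeR (adjusted p = 0.984) and passed it with DESeq2, the study's tool (adjusted p = 1.22e-05). Without WT replicate 2 it fell by 2.38 and passed with edgeR as well (adjusted p = 0.0196).

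None of the 9 adhesion genes differed between cKO and WT Tregs beyond the spread between libraries. No member passed edgeR's quasi-likelihood test at an adjusted p under 0.05, nor at an unadjusted p under 0.05, where 0.940% of the genes tested were higher and 0.868% lower in cKO. All 9 members had groups whose levels overlapped, while 5.01% of the genes tested were higher in every cKO library than in every WT library and 3.23% were lower. Without WT replicate 2, again no member had an unadjusted p under 0.05 (3.01% of the genes tested did) and again all 9 overlapped, where 8.48% of the genes tested were higher and 7.53% lower in every cKO library than in both WT libraries.

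All 9 genes were well measured. The lowest count of any member in any library was 2508, for which counting alone gives an error of 2.0%, and the highest was 19738. The 95% intervals of edgeR's log2 fold change held 0 for each of the 9 genes, and the intervals together ran from a 0.572-fold to a 2.06-fold level in cKO relative to WT, or from 0.542-fold to 1.57-fold without WT replicate 2. The median size of the change, regardless of direction, was 0.16 on the log2 scale over the members and 0.28 over all genes tested, and the median standard error was 0.21 over the members and 0.39 over all genes tested. The largest member change, 0.42 for Selplg, was exceeded by 35.9% of all genes tested. In these bulk libraries, a lower share of a kind of cell and less RNA per cell cannot be told apart.

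**Figure D1:**
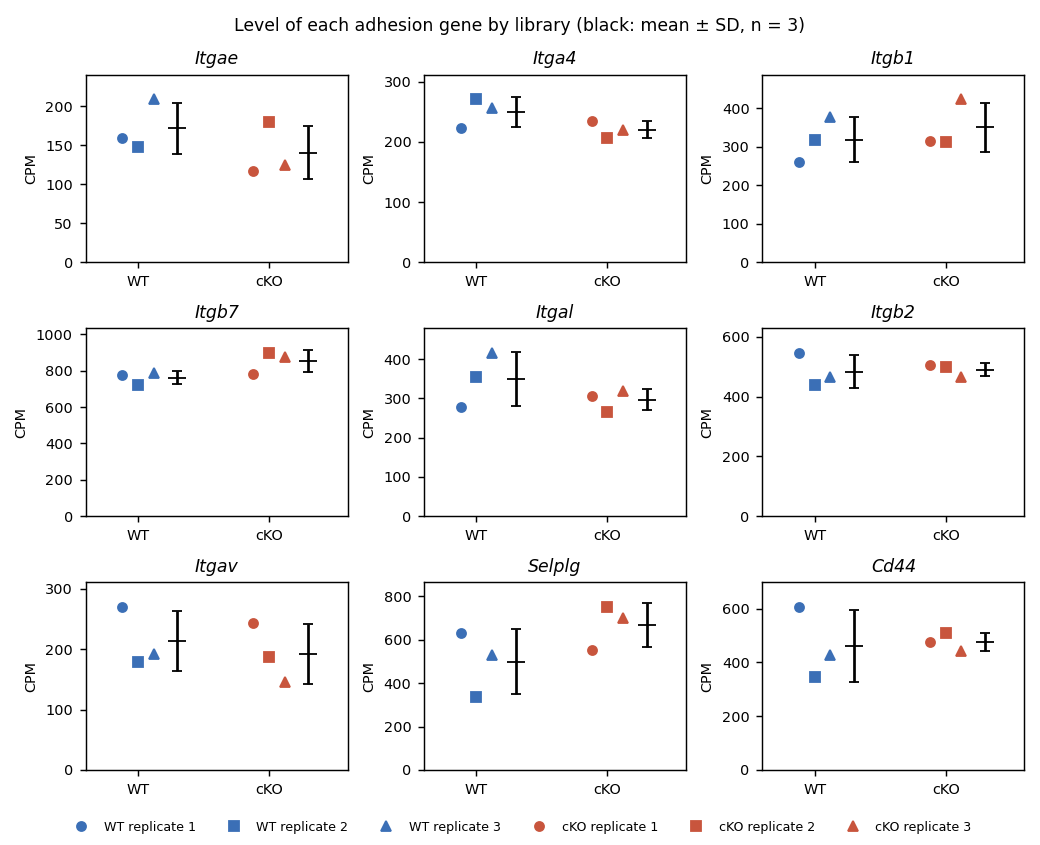
Level of each of the 9 adhesion genes in CPM (vertical axes, from 0) in the 3 WT libraries (blue) and the 3 cKO libraries (red), with marker shapes for replicates 1, 2 and 3 and black bars for the mean ± SD of each group. The groups overlap in all 9 panels, and WT replicate 2 is the lowest library for Itgb7, Itgb2, Selplg and Cd44.

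Of the subunits of LFA-1, the shared leukocyte beta subunit Itgb2 was at 546, 439 and 464 CPM in WT and at 505, 499 and 464 CPM in cKO. Itgal, its T cell partner, was at 278, 353 and 416 CPM in WT and at 305, 266 and 319 CPM in cKO. Itgb2 was highest in WT replicate 1 and lowest in WT replicate 2, with the 3 cKO libraries between them, while Itgal was lowest in cKO replicate 2 and highest in WT replicate 3. The group means were 483 ± 56.0 CPM in WT and 490 ± 22 CPM in cKO for Itgb2, and 349 ± 68.7 CPM and 297 ± 27.4 CPM for Itgal (SD, n = 3 each). The log2 fold change of Itgb2 was 0.02 (95% interval −0.36 to 0.40) and turned to −0.05 without WT replicate 2. That of Itgal was −0.23 (−0.68 to 0.21) with and −0.23 (−0.67 to 0.22) without that library. Itgb2 lies at chr10:77530252-77565708 and Itgal at chr7:127296260-127335138, both on the plus strand of GRCm38.

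Itgb7, the beta subunit of the mucosal integrins, had the highest CPM of the 9 genes in each library. It was at 777, 722 and 786 CPM in WT and at 783, 898 and 878 CPM in cKO (means 761 ± 34.8 and 853 ± 61.5 CPM, SD, n = 3 each), and its rank among the 15315 genes ran only from 158 to 200. Only cKO replicate 1 lay within the range of the WT libraries. Its log2 fold change was 0.16 (−0.23 to 0.56), and 0.13 (−0.26 to 0.52) without WT replicate 2. Itgb7 lies at chr15:102215995-102231944 on the minus strand.

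Itgae, the gene of CD103, was at 159, 148 and 209 CPM in WT and at 116, 180 and 125 CPM in cKO (means 172 ± 32.9 and 141 ± 34.4 CPM, SD, n = 3 each). The cKO replicates 1 and 3 lay below every WT library, and cKO replicate 2 lay above WT replicates 1 and 2. The log2 fold change was −0.29 (−0.81 to 0.22), and −0.39 (−0.88 to 0.11) without WT replicate 2, the most negative of the 9 genes in both. Itgae lies at chr11:73090583-73147446 on the plus strand and overlaps Haspin, a kinase gene on the other strand. The strand setting of the read counting is not given in the sources used here, so reads of such partners may not have been separated.

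Itga4, which pairs with either Itgb7 or Itgb1, was at 223, 271 and 256 CPM in WT and at 235, 207 and 219 CPM in cKO (means 250 ± 24.8 and 221 ± 14.1 CPM, SD, n = 3 each). Its cKO libraries lay close together, and 2 of the 3, replicates 2 and 3, were below every WT library. Relative to WT, the log2 fold change was −0.18 (−0.52 to 0.16), and −0.12 (−0.45 to 0.21) without WT replicate 2. Itga4 lies at chr2:79255426-79333123 on the plus strand and overlaps Cerkl on the other strand.

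Itgb1, the beta subunit with the most alpha partners, was at 259, 318 and 378 CPM in WT and at 315, 313 and 423 CPM in cKO (means 318 ± 59.5 and 350 ± 63.4 CPM, SD, n = 3 each). It was highest in replicate 3 of both groups, and the spread within each group was wider than the distance between the means. With all libraries the log2 fold change was 0.14 (−0.34 to 0.62), and 0.14 (−0.36 to 0.63) without WT replicate 2. Itgb1 lies at chr8:128685654-128733200 on the plus strand.

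Itgav, the alpha subunit of the TGF-β-releasing integrins, was at 270, 178 and 193 CPM in WT and at 244, 188 and 146 CPM in cKO (means 213 ± 49.4 and 192 ± 49.3 CPM, SD, n = 3 each). It was highest in replicate 1 of both groups, and its highest library exceeded its lowest by 1.85 times. The log2 fold change was −0.15 (−0.72 to 0.42), and −0.27 (−0.79 to 0.25) without WT replicate 2. The change turned to 0.05 without WT replicate 1. Itgav lies at chr2:83724397-83806916 on the plus strand and overlaps the processed transcript Gm13684 and the pseudogene Dnmt3l-ps1, both on the other strand.

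Selplg, the gene of PSGL-1, varied most of the 9 genes. It was at 631, 334 and 531 CPM in WT and at 553, 751 and 699 CPM in cKO (means 499 ± 151 and 668 ± 103 CPM, SD, n = 3 each). WT replicate 2 was the lowest library and cKO replicates 2 and 3 the highest, with WT replicate 1 above cKO replicate 1. The log2 fold change was 0.42 (−0.20 to 1.04), and 0.20 (−0.25 to 0.65) without WT replicate 2, so that the estimate was over 1.5 times as large with that library as without it. Selplg lies at chr5:113818536-113832644 on the minus strand.

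Cd44, the hyaluronan receptor, was at 606, 347 and 429 CPM in WT and at 475, 510 and 443 CPM in cKO (means 461 ± 133 and 476 ± 33.2 CPM, SD, n = 3 each). The 3 cKO libraries all lay inside the range of the WT libraries, whose ends were WT replicates 1 and 2. The log2 fold change was 0.05 (−0.49 to 0.58) and turned to −0.12 (−0.55 to 0.31) without WT replicate 2. Cd44 lies at chr2:102811141-102901665 on the minus strand, with the small nuclear RNA gene Gm23731 inside it on the other strand.

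Adjusted p-values of the 9 genes from edgeR were between 0.984 and 0.996, and all were 0.997 without WT replicate 2. Exact two-sided permutation tests of log2(CPM + 0.5), 1 per gene, gave p from 0.2 to 0.9, in a design where the smallest p possible is 0.1. The 4 alpha subunits had negative log2 fold changes, from −0.29 to −0.15, and the 3 beta subunits had positive ones, from 0.02 to 0.16, but no member passed the test, and with single libraries left out the signs of Itgb1, Itgb2 and Itgav changed: Itgb1 without cKO replicate 3, Itgb2 without WT replicate 2, WT replicate 3 or cKO replicate 1, and Itgav without WT replicate 1 or cKO replicate 3. This grouping by subunit was made after the values were seen.

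**Figure D2:**
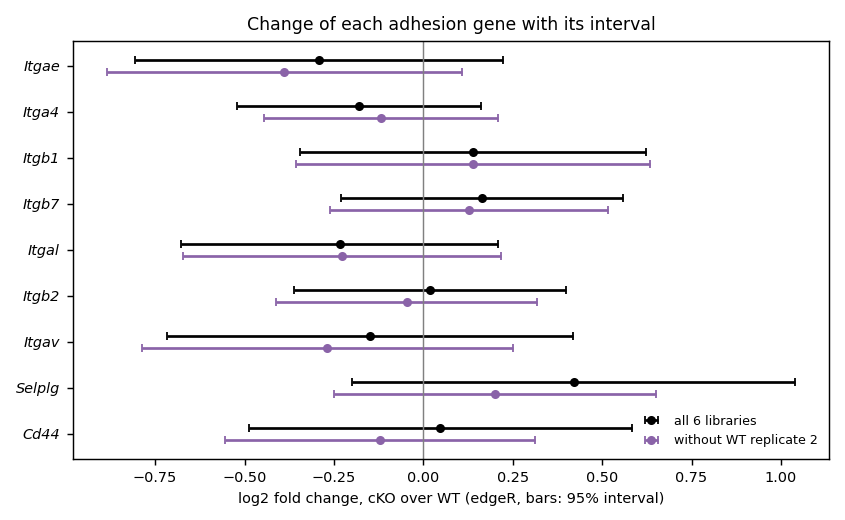
Log2 fold change of cKO over WT for each of the 9 adhesion genes (points, edgeR) with 95% intervals (bars), over all 6 libraries (black) and without WT replicate 2 (purple). All 18 intervals cross 0, and the widest over all 6 libraries is that of Selplg, from −0.20 to 1.04.

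The members also differed in which library was highest. WT replicate 1 was the highest library for 3 genes (Itgb2, Itgav and Cd44), WT replicate 3 for 2 (Itgae and Itgal), cKO replicate 2 for 2 (Itgb7 and Selplg), and WT replicate 2 and cKO replicate 3 for 1 each (Itga4 and Itgb1). WT replicate 2 was the lowest library for 4 of the 9. The highest library exceeded the lowest by 1.24 times for Itgb2, 1.25 times for Itgb7 and 1.31 times for Itga4, against 2.24 times for Selplg, the other 5 genes lying between 1.56 and 1.85 times. The CPM of the 9 genes summed to between 3110 and 3750 in WT, lowest in WT replicate 2, and to between 3531 and 3812 in cKO.

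To compare the genes with each other, CPM was divided by the length of the longest coding transcript in kilobases (kb). The means over the 6 libraries ran from 314 CPM per kb for Selplg and 301 for Itgb7, through 164 for Itgb2, 87.6 for Itgb1, 83.4 for Cd44, 61.8 for Itgal, 40.6 for Itgae and 28.8 for Itgav, to 24.1 for Itga4. Each of the beta subunits thus stood above each of the alpha subunits in mean level per kb. Only 2 of the 8 steps between neighbours were wider than the spread over libraries. Itgb7, at 269 to 335 CPM per kb, stood above Itgb2 at 148 to 184 in every library, and the lowest Itgb2 library stood above the highest of Itgb1, which ran from 67.8 to 111. Selplg and Itgb7, Itgb1 and Cd44, Cd44 and Itgal, Itgal and Itgae, Itgae and Itgav, and Itgav and Itga4 had ranges that overlapped. The place of Selplg depends on the length used: over the union of all annotated exons, 4.272 kb in place of 1.855 kb, it had a mean of 137 CPM per kb and came after Itgb7 at 291 and Itgb2 at 159. The order of the other genes was the same over those lengths, with Itgae then separate from Itgav as well.

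**Figure D3:**
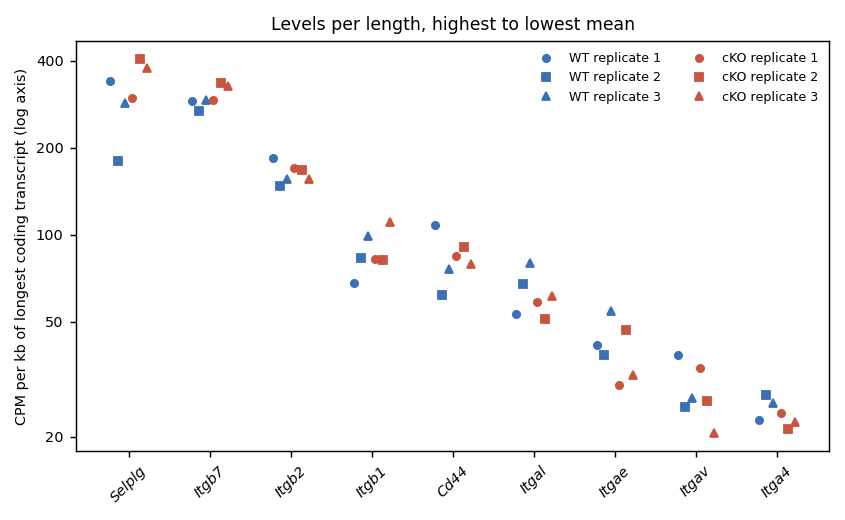
CPM per kb of the longest coding transcript (vertical log axis) for the 9 adhesion genes in order of their mean, with 1 point per library (WT blue, cKO red, shapes for replicates). Selplg and Itgb7 are highest at means of 314 and 301 CPM per kb, and Itga4 is lowest at 24.1.

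Because integrin subunits act in pairs, the level per kb of each alpha subunit was divided by that of a beta partner within each library, which removes the scaling of the library. The 5 ratios share subunits and were not tested. Itgae over Itgb7, the pair that holds CD103, was 0.143, 0.143 and 0.186 in WT and 0.104, 0.140 and 0.0996 in cKO (means 0.157 ± 0.0250 and 0.114 ± 0.0221, SD, n = 3 each). It was the only 1 of the 5 ratios whose groups did not overlap, with and without WT replicate 2, and cKO replicate 2 lay just under the lowest WT library. When every other gene tested was divided by Itgb7 in the same way, 6.75% were lower in every cKO library than in every WT library (13.9% without WT replicate 2), so a ratio with this denominator separates the groups in this direction more often than CPM does.

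Itgal over Itgb2, the LFA-1 pair, was 0.290, 0.457 and 0.509 in WT and 0.343, 0.303 and 0.391 in cKO. Its lowest value was that of WT replicate 1, so the groups overlapped. Itga4 over Itgb7 was 0.0788, 0.103 and 0.0895 in WT and 0.0826, 0.0634 and 0.0686 in cKO, and Itga4 over Itgb1 was 0.336, 0.334 and 0.265 in WT and 0.292, 0.259 and 0.202 in cKO. In both Itga4 pairs cKO replicate 1 lay within the WT range and the other 2 cKO libraries lay below it. Itgav over Itgb1 was 0.564, 0.303 and 0.276 in WT and 0.419, 0.324 and 0.186 in cKO, highest in replicate 1 of both groups. The mean ratio was lower in cKO for all 5 pairs, by 0.28 to 0.46 on the log2 scale, and for Itgav over Itgb1 it was higher in cKO, by 0.10, without WT replicate 1.

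**Figure D4:**
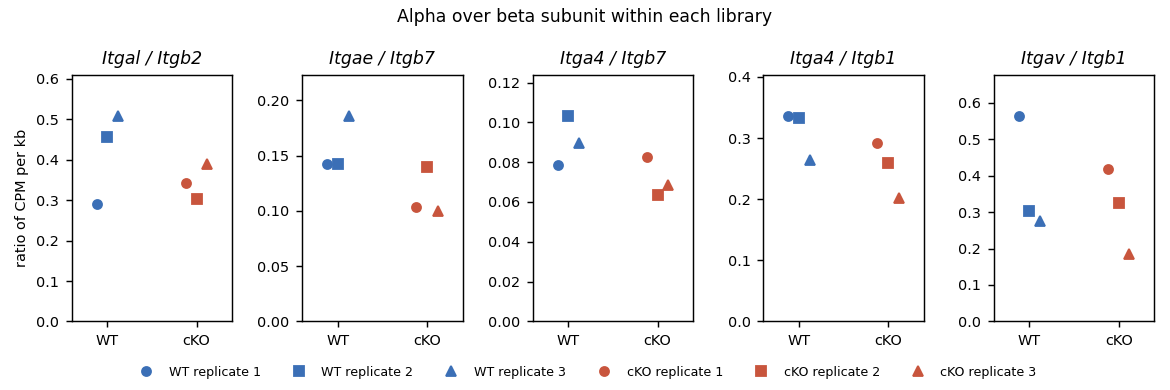
Ratio of the level per kb of an alpha subunit to that of its beta partner (vertical axes, from 0) in each WT (blue) and cKO (red) library for 5 integrin pairs, with shapes for replicates. The groups are separate only for Itgae over Itgb7, where the cKO libraries lie between 0.0996 and 0.140 and the WT libraries between 0.143 and 0.186.

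For the 3 members with the widest range over the libraries, the 2 genes of most similar pattern were sought among 8446 genes with a mean of at least 10 CPM, by the mean absolute difference of log2 values centred on each gene's own mean over the 6 libraries. They were Mrpl12 (0.04) and Myg1 (0.04) for Selplg, Nmrk1 (0.04) and Lilr4b (0.05) for Itgav, and Ppp1r14b (0.09) and Il10 (0.10) for Itgae. Il10, a cytokine of effector Tregs, was at 160, 173 and 182 CPM in WT and at 108, 181 and 126 CPM in cKO. As with Itgae, cKO replicates 1 and 3 were below every WT library and cKO replicate 2 was not, a likeness for which Il10 was chosen. With 6 points, patterns as close as these describe these libraries only.

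The other genes of adhesion were read from 6 lists of 109 genes, of which 105 were tested. None was higher and 2, Furin and Tln2, were lower in cKO at an unadjusted p under 0.05 from edgeR. Of all genes tested, 0.940% were higher and 0.868% lower at this threshold. No gene of the lists passed at an adjusted p. The median log2 fold change of the lists was 0.09 against 0.04 over all genes tested, or 0.03 against −0.01 without WT replicate 2. Of the other integrin subunits, 0 of 18 tested passed in either direction (median 0.42, and 0.22 without WT replicate 2). Only 4 of them were above 10 CPM in every library and 4 were under 1 CPM in all, so the median rests largely on genes of low level. The most abundant were Itgb3 (73.3 to 105 CPM), Itga6 (31.8 to 98.1 CPM) and Itgb8 (18.1 to 60.6 CPM). Their log2 fold changes were 0.08, −0.16 and −0.23. Itgb8, which pairs only with Itgav and activates TGF-β, was at 60.6, 22.1 and 23.8 CPM in WT and at 43.6, 29.3 and 18.1 CPM in cKO, highest in replicate 1 of both groups, as Itgav was.

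Of the 27 genes of integrin activation and signaling, 0 were higher and 1 was lower (median 0.09, and 0.03 without WT replicate 2). Rap1b (441 to 664 CPM), a small GTPase that switches integrins on, Fyb (354 to 436 CPM) and the actin regulator Vasp (365 to 393 CPM) were the most abundant. Tln2, a talin, was at 0.669, 23.4 and 0.417 CPM in WT and at 0.139, 0.336 and 0.934 CPM in cKO, so that WT replicate 2 alone was high. Its log2 fold change was −4.10 with that library and −0.20 without it. Of 13 tested genes of integrin ligands and TGF-β activation, 0 were higher and 1 was lower (median −0.09, and −0.04 without WT replicate 2). This was Furin, a protease that cleaves pro-TGF-β, at 170, 258 and 163 CPM in WT and at 156, 139 and 123 CPM in cKO. Its groups did not overlap, and 3.23% of all genes tested were likewise lower in every cKO library than in every WT library. The log2 fold change of Furin was −0.50 (edgeR's unadjusted p = 0.0485, adjusted p = 0.984, exact permutation p = 0.1), and −0.26 without WT replicate 2. Lrrc32 (380 to 520 CPM), which holds latent TGF-β on Tregs, Tgfb1 (272 to 385 CPM) and Tgfbr2 (137 to 195 CPM) were the most abundant.

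Of the 15 genes of selectins and selectin ligand synthesis, 0 passed in either direction (median 0.02, and 0.03 without WT replicate 2). Spn, which carries selectin ligands beside PSGL-1, was at 338, 196 and 302 CPM in WT and at 349, 339 and 350 CPM in cKO, higher in every cKO library by a narrow margin (exact permutation p = 0.1, edgeR's adjusted p = 0.984). B4galt1 was at 165 to 433 CPM, highest in WT replicate 2. Of 14 tested CD44 partners, 0 passed (median 0.16, and −0.02 without WT replicate 2), the most abundant being Srgn (1648 to 2288 CPM), Msn (660 to 979 CPM), which links CD44 and PSGL-1 to actin, and Cd74 (394 to 756 CPM). Msn was at 804, 660 and 813 CPM in WT and at 852, 931 and 979 CPM in cKO, so its groups did not overlap (exact permutation p = 0.1, edgeR's adjusted p = 0.984). Of all genes tested, 5.01% were higher in every cKO library than in every WT library, as Spn and Msn were. In the other direction, 3.23% were lower in every cKO library. Among these were Fut7 of the selectin list and Rdx and Has1 of the CD44 partners, named after their values were seen. Of 18 tetraspanins and T cell adhesion receptors, 0 passed (median 0.09, and 0.03 without WT replicate 2), led by Cd53 (833 to 1365 CPM), Cd82 (719 to 1108 CPM) and Cd2 (639 to 830 CPM).

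**Figure D5:**
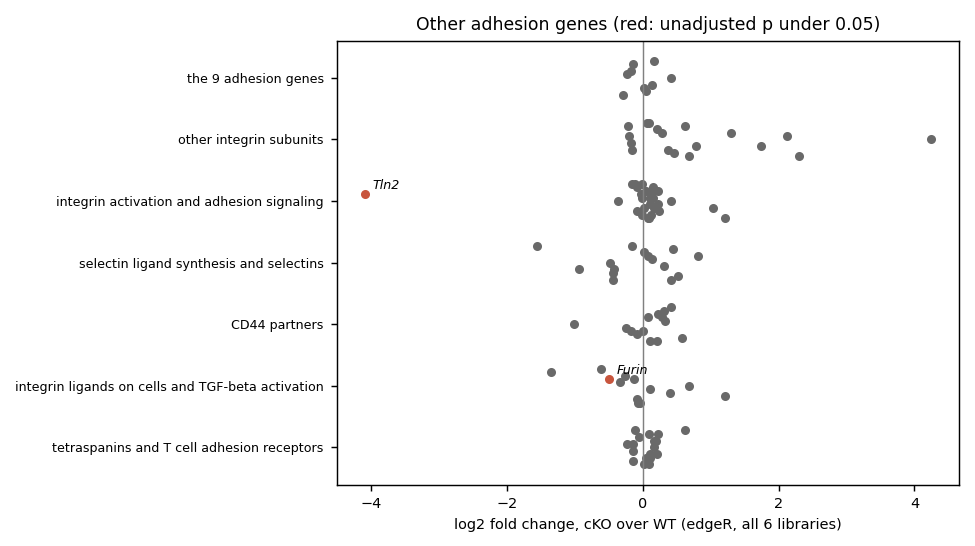
Log2 fold change of cKO over WT from edgeR (horizontal axis, all 6 libraries) for the 9 adhesion genes (top) and the tested genes of 6 other adhesion lists, 1 point per gene, red at an unadjusted p under 0.05. The 9 genes lie between −0.29 and 0.42, and Tln2 (−4.10) and Furin (−0.50) are the only red points.

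The labelled cell type was checked against markers. All 8 T cell and Treg markers, Foxp3 among them, were above 10 CPM in every library, and their sum was 4392 to 6145 CPM in WT and 4924 to 5595 CPM in cKO, with none of the 8 past an unadjusted p of 0.05. Macrophages and dendritic cells also use Itgb2, Itgal, Itgav, Selplg and Cd44. Their 10 markers summed to 167, 615 and 597 CPM in WT and to 211, 422 and 801 CPM in cKO, mostly from Lyz2. None of the 10 passed over all 6 libraries. Without WT replicate 2, 1 of the 10, Xcr1, was lower in cKO at an unadjusted p under 0.05 from edgeR. Of all genes tested, 3.01% passed there in either direction. Xcr1 was at 13.1, 0.846 and 7.61 CPM in WT and at 7.33, 6.92 and 4.40 CPM in cKO. The sum of 8 neutrophil markers was 10.1 to 20.5 CPM in WT and 15.5 to 19.4 CPM in cKO. At an unadjusted p under 0.05 from edgeR, 3 of 8 were higher in cKO, against 0.940% of all genes tested. They were S100a9, Retnlg and Ngp, the last 2 at 0 in every WT library, and none of the 3 exceeded 1.91 CPM in any library. Cxcr2 and Csf3r, the 2 with negative log2 fold changes, were at −0.58 and −0.08.

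The sums of the other marker lists were 73.3 to 132 CPM in WT and 106 to 137 CPM in cKO for platelets (0 of 5 tested passed), mostly from Itgb3. For endothelial cells they were 60.5 to 80.0 and 70.1 to 94.1 CPM, mostly from Pecam1, which is also on the list of T cell adhesion receptors. Of 6 endothelial markers tested, 1 was higher, Vwf, at no more than 1.21 CPM in any library. The sums were 39.1 to 106 CPM in WT and 41.5 to 72.6 CPM in cKO for lung epithelium (0 of 8). For B cells they were 14.7 to 23.7 and 12 to 48.3 CPM. Of the 5 B cell markers, 1 was higher, Pax5, at no more than 0.756 CPM in any library and at 0 in cKO replicate 1. Its groups overlapped, and it did not pass without WT replicate 2 (edgeR's unadjusted p = 0.0522). Of all genes tested, 0.940% were higher at an unadjusted p under 0.05, as Vwf and Pax5 were. For CD8 T and NK cells the sums were 5.26 to 21.9 and 19.8 to 21.9 CPM (0 of 5), and for stromal cells 0 to 3.07 and 1.49 to 3.65 CPM (0 of 6). The part of these cells in the levels of the adhesion genes was not tested.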

How the data were processed

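RNA-Seq measured tumor-infiltrating Tregs in 3 libraries of each group. Expected counts for each gene symbol were deposited by the authors without normalization, from paired-end reads aligned to GRCm38. The submitters' processing notes name Bowtie2 (2.3.4.3) and RSEM (1.3.1) without roles. Annotation and strand setting of the counting are not given in the sources used here. As 21.6% of the deposited values were not whole, counts were rounded.

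Genes with at least 1 count were scaled by TMM and tested with edgeR (4.0.16, limma 3.58.1, R 4.3.3) by the quasi-likelihood test of cKO against WT, with Benjamini-Hochberg adjustment over all 15315 genes. Standard errors and 95% intervals were derived from the fold change and F statistic. Exact permutation tests were two-sided, with a pseudocount of 0.5 CPM. A count of 3 was worth 0.133 to 0.156 CPM. Lengths and positions came from the GENCODE annotation of GRCm38, and promoters from RefSeq. Replicates differed by more than sampling noise. The scripts were tested on simulated data.

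The members and gene lists were chosen with earlier results of these data known. Named from each adhesion list were the 3 genes of highest mean CPM and any gene with an unadjusted p under 0.05. Among those so named, 1 gene is not reported here. From marker lists (T cell and Treg, macrophages and dendritic cells, neutrophils, CD8 T and NK cells, B cells, platelets, endothelial cells, stromal cells, lung epithelium), genes with an unadjusted p under 0.05 were named after their values were seen. Alternatives were DESeq2 (1.42.0, the study's tool) with all libraries and without WT replicate 2, median-of-ratios scaling, library size only, filterByExpr (minimum count 10), robust dispersion, limma's voomWithQualityWeights, a replicate block and leaving out each library. Exon-union lengths, and ratios with each library left out, were added after seeing the data.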

Additional observations from a re-analysis of the deposited data

How the results depend on the processing

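Under all 14 alternatives, 0 of the 9 adhesion genes passed an adjusted or an unadjusted p of 0.05, by edgeR, DESeq2 or limma. The change of Itgb2 (0.02) turned to −0.037 with library size only, −0.017 with voomWithQualityWeights and −0.049 with DESeq2 without WT replicate 2, and that of Cd44 (0.05) to −0.024 with voomWithQualityWeights and −0.12 with DESeq2 without WT replicate 2. With each library left out, changes ran from −0.046 to 0.12 for Itgb2, −0.12 to 0.30 for Cd44, −0.021 to 0.29 for Itgb1, −0.36 to 0.055 for Itgav, −0.51 to −0.12 for Itgae, −0.26 to −0.12 for Itga4, 0.13 to 0.22 for Itgb7, −0.37 to −0.09 for Itgal and 0.20 to 0.63 for Selplg, and that of the ratio Itgav over Itgb1 from −0.58 to 0.10. The other 4 ratios kept their direction. Leaving out a library moved the median of all genes to between −0.01 and 0.11, the latter with WT replicate 1 left out, and 0.10 with WT replicate 3 left out. The cause of these turns was not tested.

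Over all genes, edgeR called 0 at an adjusted p under 0.05 (277 at an unadjusted p), DESeq2 called 2, DESeq2 without WT replicate 2 called 3, and leaving out each library gave 0 to 1. At an unadjusted p, filterByExpr gave 140 genes, voomWithQualityWeights 543, the replicate block 85, and leaving out each library 65 to 874, highest without WT replicate 1. The 2 other adhesion genes called by edgeR, Furin and Tln2, became 1 with DESeq2 (Furin). For Tln2, DESeq2 gave a log2 fold change of −4.11 but no p-value. The 2 became 1 with median-of-ratios scaling, 1 with library size only and 1 with filterByExpr (Tln2 each time), and 0 with the replicate block. The 1 gene called with voomWithQualityWeights was Itgad (1.70) and the 1 called by DESeq2 without WT replicate 2 was Itgam (0.87), both higher in cKO. Leaving out each library gave 0 to 5, and 0 without WT replicate 2. The 5, without WT replicate 1, were Furin, Tln2, B4galt1, Rasgrp2 and St3gal4, all lower, while Itgam (1.97, without WT replicate 3) and Cd74 (0.55, without cKO replicate 1) were higher. These genes were named after their values were seen. Same-numbered libraries had correlations of −0.01, −0.21 and 0.20 between their deviations from the group means, so the numbers were not taken as pairs, and the replicate block changed no call of a member. With 3 libraries a group, the intervals given above are the changes that these data do not exclude.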
